A study of Homo sapiens with 6 samples.

Results

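Chromatin accessibility was examined at 10 genes of the NF-kB pathway in NCI-H1703 cells, a human line labelled as lung squamous cell carcinoma. The genes encode the 5 NF-kB subunits (NFKB1, NFKB2, REL, RELA and RELB), 2 feedback inhibitors (NFKBIA and TNFAIP3) and 3 inflammatory cytokines (CXCL8, IL6 and IL1B). They were listed by symbol, and all 10 were found among 59679 RefSeq genes on the chromosomes. Each gene was described by the peaks that overlap its GRCh38 span plus 10 kb on either side, here called its window. The assay was ATAC-seq, in which a transposase inserts adapters into open DNA, so that a peak marks an accessible stretch. The 3 silenced libraries come from cells with DLGAP1-AS2, a long non-coding RNA, silenced, and the 3 control libraries from cells labelled control. The titles of the silenced libraries read ASO and those of the control libraries NC. The labels give neither the agent of the control cells nor a dose or time. All libraries come from the same line, and nothing in the labels says that replicates were separate cultures, so p-values measure only the spread between these samples, which may be technical. In bulk cells, a larger share of open cells and a more open site per cell cannot be told apart.

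NF-kB is a family of dimeric transcription factors held in the cytoplasm by inhibitors of the IkB type until an upstream kinase complex marks those inhibitors for destruction. Freed dimers enter the nucleus and bind short sites called kB sites. Their targets include cytokine genes and also genes for NF-kB subunits and for inhibitors, which close a negative feedback loop. In airway and lung tumour cells the pathway is best known for driving interleukin and chemokine genes.

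The sequences before the gene starts show how unlike these promoters are. RefSeq promoter sequences of GRCh38.p14 were found for 9 of the 10 members, all but RELB. The 250 bases before the start are shown for a feedback gene and the 3 cytokine genes, because these 4 hold the contrast between starts with and without peaks described further on. Capitals mark matches on either strand to the kB consensus GGGRNNYYCC, where R is A or G, Y is C or T and N is any base.
NFKBIA, chr14:35404750-35404999, minus strand: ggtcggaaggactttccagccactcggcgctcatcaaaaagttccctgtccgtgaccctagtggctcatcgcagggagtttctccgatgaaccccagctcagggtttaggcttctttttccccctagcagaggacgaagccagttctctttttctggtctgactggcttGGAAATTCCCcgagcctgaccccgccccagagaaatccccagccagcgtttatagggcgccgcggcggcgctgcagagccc
IL6, chr7:22726950-22727199, plus strand: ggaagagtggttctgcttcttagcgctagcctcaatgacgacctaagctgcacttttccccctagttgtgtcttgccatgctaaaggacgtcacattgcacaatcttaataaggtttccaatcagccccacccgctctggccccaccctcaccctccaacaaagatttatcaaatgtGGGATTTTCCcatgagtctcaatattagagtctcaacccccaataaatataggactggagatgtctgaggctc
CXCL8, chr4:73740319-73740568, plus strand: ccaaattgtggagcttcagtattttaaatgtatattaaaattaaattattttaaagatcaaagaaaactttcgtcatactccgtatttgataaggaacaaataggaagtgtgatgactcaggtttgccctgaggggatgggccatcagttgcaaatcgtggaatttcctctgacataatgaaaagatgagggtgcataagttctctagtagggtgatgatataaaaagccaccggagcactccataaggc
IL1B, chr2:112836780-112837029, minus strand: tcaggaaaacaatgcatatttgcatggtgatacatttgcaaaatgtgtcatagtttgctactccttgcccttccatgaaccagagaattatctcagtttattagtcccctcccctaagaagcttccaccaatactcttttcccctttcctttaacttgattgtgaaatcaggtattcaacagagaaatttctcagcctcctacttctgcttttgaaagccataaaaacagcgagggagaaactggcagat

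A match to the kB consensus was present in these 250 bases in 5 of the 9 members (55.6%), against 10.9% of 15842 protein-coding promoters of the same length. The members are textbook NF-kB genes, so this share is a description of the list. Besides NFKBIA and IL6, the matches lay before NFKB1, REL and TNFAIP3. REL had matches on both strands that overlap by all but 1 base, and TNFAIP3 had 2 side by side. Stretches of at most 30 bases around them are shown because all of them were inside a peak in every library.
NFKB1, chr4:102501300-102501329, plus strand: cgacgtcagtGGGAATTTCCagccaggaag
REL, chr2:60881518-60881546, plus strand: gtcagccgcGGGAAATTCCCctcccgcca
TNFAIP3, chr6:137867188-137867217, plus strand: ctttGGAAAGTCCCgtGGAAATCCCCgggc
A match began between 47 and 81 bases before the gene start in all 5 members. No match was found before NFKB2, RELA, CXCL8 and IL1B, which says only that the exact consensus is not in this window. Sites that miss it by a base were not searched. The CXCL8 sequence holds such a site, tggaatttcc, which differs from the consensus only in its first base. The AP-1 motif TGANTCA, searched on both strands, occurred only before CXCL8 among the 9, at 137 to 131 bases before the start, and in 5.04% of protein-coding promoters. The TATA box letters TATAAA, also searched on both strands, occurred before CXCL8 and, on the opposite strand, before NFKBIA, and in 9.23% of protein-coding promoters. No listed match overlapped a match of another motif.

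Accessibility over these matches divided the members. The kB matches of NFKB1, REL, NFKBIA and TNFAIP3 were covered by a peak in 6 of 6 libraries. The kB match of IL6 was covered in 0 of 6, and the AP-1 and TATA matches of CXCL8 in 0 of 6. The promoters also differed in CpG dinucleotides, which are frequent in many broadly used promoters. REL had 36, NFKB1 31 and TNFAIP3 29 in the 250 bases, NFKB2 and NFKBIA 15 each, RELA, CXCL8 and IL6 4 each, and IL1B 1. The median was 22 over protein-coding genes with a peak within 1 kb of the start in all 6 libraries and 4 over those with none in any library. RELA had a peak within 1 kb of its start in all libraries, with a CpG number at the median of the promoters without one. The middle of that region lay 459 bp inside the gene, however, and in control replicate 3 the peak did not reach the start. The CpG count covers only the bases before the start.

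The libraries differed in depth. Read totals are not given, so the lowest background coverage implied by each list stands in for depth, and it was 0.237 in silenced replicate 3, 0.464 in control replicate 2 and 0.369 to 0.402 in the other 4. The authors' peak height, the pileup at a peak, had a median over shared regions of 10 in silenced replicate 3 and 16 to 19 elsewhere. Shared regions are the 37284 regions called in all 6 lists after merging. The lists held 91346 to 170882 peaks. In control replicate 2, the shortest list, 2.46% of peaks had a height under 4, against 48.1% to 52.1% in the other lists. Counts that include weak peaks are thus not alike between that list and the others. Of 6 squamous markers, SOX2 alone had a peak within 1 kb of its start in all 6 libraries, while KRT5 and KRT6A had none in any and TP63, KRT14 and DSG3 had one in 1 library each. Within 2.5 kb, KRT14 had a peak in all 6. Of 4 alveolar and adenocarcinoma markers, 3 (NKX2-1, NAPSA and SFTPC) had one in all 6. Of 4 fibroblast and mesenchymal markers, COL1A1, COL1A2 and VIM had one in all 6. Of the leukocyte markers, PTPRC had none, CD14 had one in 1 library, CD3E in 3 and SPI1 in all 6. For genes without a known start, either end of the span counted. The part of these markers in the results was not tested.

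The first comparison asked whether the gene starts of the members were open in both groups. The answer was the same in all 6 libraries for 9 of the 10 genes: 8 had a peak within 1 kb of the start in every library, and CXCL8 had none. Among 15842 protein-coding genes with a known start, 59.9% had such a peak in all 6 libraries and 19.2% in none. IL1B had a peak there in control replicate 3 alone. The number of members with a gene-start peak was 8, 8 and 8 in silenced and 8, 8 and 9 in control libraries, or 8 ± 0 (SD, n = 3) against 8.33 ± 0.577 (SD, n = 3). The difference did not exceed the replicate spread (exact permutation test, two-sided, p = 1), and 0.1 is the smallest p that 3 libraries a group allow. No member had a peak within 1 kb of its start in 3 libraries of a group and 0 of the other. The start itself lay inside a peak in all 6 libraries for NFKB1, NFKB2, REL, NFKBIA and TNFAIP3, which was the case for 46.3% of protein-coding genes. By this stricter measure RELB separated the groups, with the lower end of its span inside a peak in 0 silenced and 3 control libraries. That occurred at 0.252% of protein-coding genes with a known start, and the reverse at 0.0316%.

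**Figure D1:**
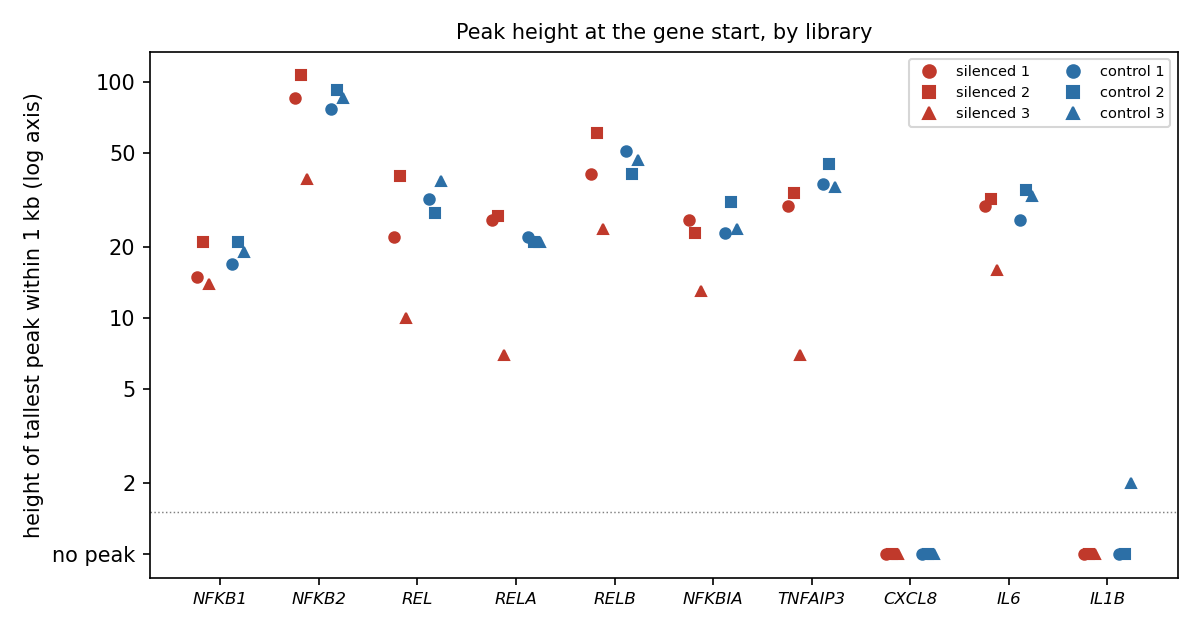
Height (the authors' pileup, log axis) of the tallest peak within 1 kb of each gene start, 1 point per library, with silenced libraries in red and control libraries in blue. No peak was called at CXCL8, 1 peak of height 2 at IL1B, and NFKB2 had the tallest peaks, between 39 and 107, with silenced replicate 3 lowest.

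Among the subunit genes, NFKB2 had the tallest start. NFKB2 (chr10:102394110-102402529) encodes p100, the precursor of p52 in the non-canonical arm of the pathway. The region over its start (chr10:102393914-102395223) reached 86, 107 and 39 in the silenced libraries and 77, 93 and 86 in the control libraries, in replicate order here and throughout. Silenced replicate 3 was far below the rest and the groups overlapped. Height depends on depth, so the groups were compared by rank within each library. Whether such ranks are free of depth was not tested. The percentile of a region's fold enrichment among the 37284 shared regions of the same library, where 100 is the strongest, was 66.9, 68.8 and 71.6 in silenced and 59.2, 58.9 and 62.6 in control libraries. These percentiles did not overlap, with silenced libraries higher. Ranks were converted to normal scores, and the difference (silenced minus control) was 0.241 ± 0.232 score units (SE, 3 libraries against 3; limma, adjusted p = 0.965 over all shared regions), which does not pass the threshold of 0.05. Ranked by height, the groups overlapped, and silenced replicate 3, the highest by fold enrichment, was the lowest (percentile 93.4).

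The NFKB2 window was also the densest. It held 3 further regions called in all 6 libraries, at 1529, 5396 and 9844 bp from the start, measured to the middle of each region. The last had heights of 85, 89 and 41 in silenced and 66, 90 and 77 in control libraries. An average of 2.87 peaks per 10 kb placed this window above 99.9% of 20037 protein-coding gene windows. The background that the authors' height and fold enrichment imply was 20.5 times the lowest of the library at the start region and higher at the other 3, against a median of 2.97 over all shared regions. Hence the region at 1529 bp was at the 84.5th percentile by height and the 10.6th by fold enrichment (medians over 6 libraries). By library, the latter were 4.16, 16.2 and 55.7 in silenced and 12.0, 9.21 and 6.92 in control libraries, with silenced replicate 3 far above the rest. The rank difference of this region, 0.469 ± 0.478 (limma, adjusted p = 0.965), was the highest of the member regions. The gene PSD also lies in this window, and a region called in 5 libraries sat at its start.

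RELB (chr19:45001464-45038192), whose protein pairs with p52, had an open stretch at the lower end of its span on chromosome 19, from which its distances are counted. A region at 538 bp (chr19:45001661-45002344) had heights of 41, 61 and 24 in silenced and 51, 41 and 47 in control libraries. Its fold-enrichment percentiles were 80.4, 90.7 and 84.1 against 89.9, 78.6 and 83.7, among the highest of the members and overlapping between groups. The difference was 0.0398 ± 0.214 score units (limma, adjusted p = 0.991). A weaker region at -68 bp had heights of 14, 13 and 5 against 19, 16 and 14. The control peaks in it ended at 45001483, 45001644 and 45001479 and so covered the end of the span at 45001464. The silenced peaks ended at 45001444, 45001394 and 45001394, short of it. The region had the largest rank difference of the member regions, -0.720 ± 0.469 (limma, adjusted p = 0.963). Control percentiles ran from 8.57 to 28.6, silenced replicate 3 was lowest at 0.811, and the groups overlapped. Leaving out each library in turn gave -1.03 (without silenced replicate 1) to -0.363 (without silenced replicate 3), and in the latter case NFKB1 at 750 bp differed more, by -0.470. Further regions shared by all libraries lay at 15670 bp and at 37770 bp, the latter at the start of the neighbouring gene CLASRP.

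REL (chr2:60881574-60931612) encodes c-Rel, a subunit best known from lymphoid cells, and it had a single shared region. This region over its start (chr2:60880912-60882107) had heights of 22, 40 and 10 in silenced and 32, 28 and 38 in control libraries. Percentiles were 59.9, 84.9 and 54.7 against 82.5, 68.3 and 84.9, and silenced replicates 1 and 3 lay below every control library. The difference of -0.346 ± 0.263 did not pass (limma, adjusted p = 0.965). It was -0.163 without silenced replicate 3 and -0.619 without silenced replicate 2. The other 10 regions of the REL window were each called in 1 library only. An end of the span of REL-DT, a non-coding neighbour, lies within 1 kb of the same region.

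RELA (chr11:65653601-65663857) encodes p65, the main activating subunit of the canonical arm. Its start region (chr11:65662772-65664025) had heights of 26, 27 and 7 in silenced and 22, 21 and 21 in control libraries. Silenced replicates 1 and 2 were above the controls and replicate 3 was below them. The rank difference was -0.0582 ± 0.327 (limma, adjusted p = 0.991), and without silenced replicate 3 it was 0.273. Both other regions of RELA that were called repeatedly, at 10764 and 16400 bp, were called in all libraries but silenced replicate 3.

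NFKB1 (chr4:102501359-102617302) encodes p105, the precursor of p50. Its start carried adjoining shared regions at -156 and 750 bp. The first (chr4:102500826-102501581) had heights of 15, 21 and 14 in silenced and 17, 21 and 19 in control libraries, with percentiles of 39.3, 46.8 and 66.6 against 33.0, 40.6 and 36.1. Among member regions ranked higher in silenced cells it had the smallest p-value, with a difference of 0.370 ± 0.310 (limma, adjusted p = 0.965). Without silenced replicate 3 it was 0.162. The second had heights of 11, 9 and 7 against 10, 18 and 17. A region beyond the far end of the gene, at 119301 bp, had heights of 27, 22 and 12 against 33, 38 and 27, above the start in all libraries but silenced replicate 3. An intronic or exonic position was not analysed here, but the shared region at 40484 bp lay inside the gene span, with heights of 3 to 9.

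**Figure D2:**
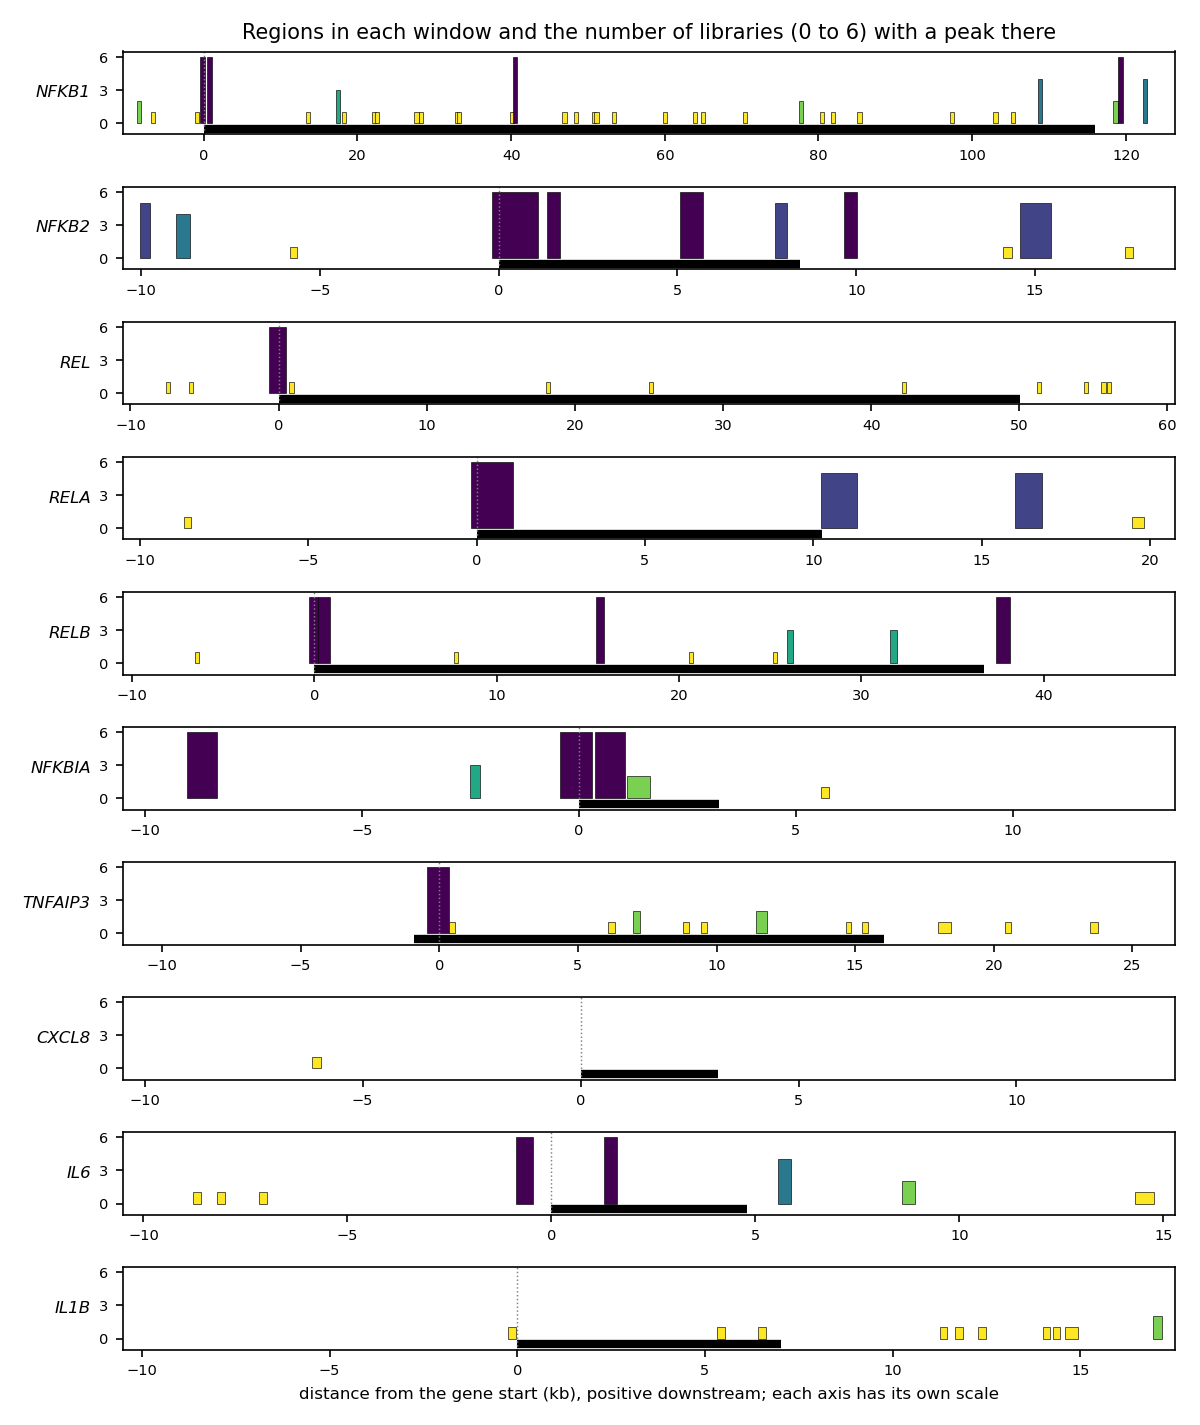
Regions in each window by distance from the gene start (kb), with bar height and colour giving the number of libraries with a peak there and the black bar the gene span. Each panel has its own horizontal scale, and very narrow regions are drawn at a minimum width. The 20 regions called in 6 libraries lie in 8 windows, and the CXCL8 and IL1B windows hold none.

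The feedback genes were open at their starts in all libraries. NFKBIA (chr14:35401513-35404749) encodes IkB-alpha, the inhibitor that NF-kB resynthesises after activation. Adjoining regions lay at -66 bp (chr14:35404439-35405192), over the kB match, and at 713 bp inside the gene. The first had heights of 26, 22 and 13 in silenced and 22, 31 and 24 in control libraries, and the second 22, 23 and 10 against 23, 26 and 18. Neither separated the groups. Their rank differences were 0.128 ± 0.392 (limma, adjusted p = 0.981) and 0.174 ± 0.419 (limma, adjusted p = 0.979). Their implied background was 10.1 and 10.7 times the lowest of the library. A further shared region lay upstream at -8690 bp, with heights of 11, 11 and 10 against 14, 18 and 12.

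TNFAIP3 (chr6:137866349-137883312) encodes A20, an enzyme that edits ubiquitin chains and switches off signalling to NF-kB. Its start region (chr6:137866809-137867593) had heights of 30, 34 and 7 in silenced and 37, 45 and 36 in control libraries. Every silenced library was below every control library in height. The percentiles of fold enrichment were 72.3, 68.1 and 19.5 against 82.9, 79.2 and 71.7, so silenced replicate 1 was above control replicate 3. It was the only one of the 20 shared member regions with an unadjusted p under 0.05 (5%, against 4.68% of all shared regions). The difference was -0.713 ± 0.319 score units (limma, adjusted p = 0.963), and it did not pass the threshold. It rested largely on silenced replicate 3, the library of lowest coverage, without which it was -0.238 ± 0.209. Ranked by height the groups did not overlap, as in 4.67% of all shared regions with silenced libraries lower (5.11% with silenced libraries higher). Its FDR was 0.00252 in silenced replicate 3. An end of the span of WAKMAR2, a non-coding neighbour, lies within 1 kb of the same region.

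The 3 cytokine genes differed from one another. IL6 (chr7:22727200-22731998) encodes interleukin-6. Its upstream region (chr7:22726346-22726752) was called in all 6 libraries, with heights of 30, 32 and 16 in silenced and 26, 35 and 33 in control libraries. It lay wholly upstream of the start, which was inside a peak in 0 of 6 libraries. Percentiles were 77.8, 74.1 and 77.6 against 56.5, 82.7 and 77.1, and the difference was 0.107 ± 0.238 (limma, adjusted p = 0.978). A second shared region at 1444 bp inside the gene had heights of 13, 11 and 5 against 13, 16 and 12. Both regions also lie within 1 kb of an end of the IL6-AS1 span, and the assay does not assign them to either gene.

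CXCL8 (chr4:73740569-73743716), which encodes the neutrophil chemokine interleukin-8, was nearly without peaks. Its window of 23148 bp held 1 peak in all, of height 3 with an FDR of 0.111, in silenced replicate 1. IL1B (chr2:112829751-112836779), which encodes the pro-inflammatory cytokine interleukin-1 beta, had 2, 2 and 0 peaks in silenced and 1, 1 and 5 in control libraries. These were low, with heights of 2 to 5, and 9 of the 10 regions were called in a single library. The peak near its start in control replicate 3 had a height of 2 and an FDR of 0.516. At this depth a start without a peak is one where none was detectable, not one shown to be closed.

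The nearest region called in every library was therefore sought for both genes. For IL1B it lay 24158 bp from the start on the downstream side, with heights of 10, 10 and 6 in silenced and 10, 10 and 10 in control libraries. For CXCL8 it lay upstream (chr4:73729451-73729880), with its middle at -10904 bp and its edge 689 bp outside the window. It overlaps no gene in the RefSeq table. Its heights were 7, 13 and 6 in silenced and 21, 29 and 17 in control libraries, and its percentiles were 25.2, 55.0 and 37.3 against 72.6, 87.3 and 76.4. All 3 silenced libraries were below all 3 control libraries on both scales, which for fold-enrichment ranks with silenced lower was true of 4.78% of shared regions. The difference was -1.11 ± 0.276 score units (limma, adjusted p = 0.963) and does not pass. Counting this region, 8 of the 37284 shared regions had an unadjusted p-value at or below its own. It was not among the regions shared by all lists at an FDR of at most 1e-05. Leaving out each library in turn gave -1.29 to -0.900, and leaving out silenced replicate 3 and control replicate 2 together gave -0.838. This region was singled out after its values were seen.

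Widening the windows to 50 kb on either side gave 44 shared regions, of which 4 had an unadjusted p-value under 0.05 and none an adjusted p below 0.963 (limma; 4.68% of all shared regions had an unadjusted p-value under 0.05). Besides the regions of TNFAIP3 and CXCL8, the other 2 were near NFKB2. A region upstream of NFKB2 at -18620 bp had heights of 17, 17 and 13 in silenced and 14, 5 and 11 in control libraries, and control replicate 2 was far below the others. Another at 38458 bp had 79, 89 and 58 against 63, 71 and 70, with silenced replicate 3 the lowest. Their rank differences were 1.52 ± 0.591 and 0.479 ± 0.200 score units (SE).

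**Figure D3:**
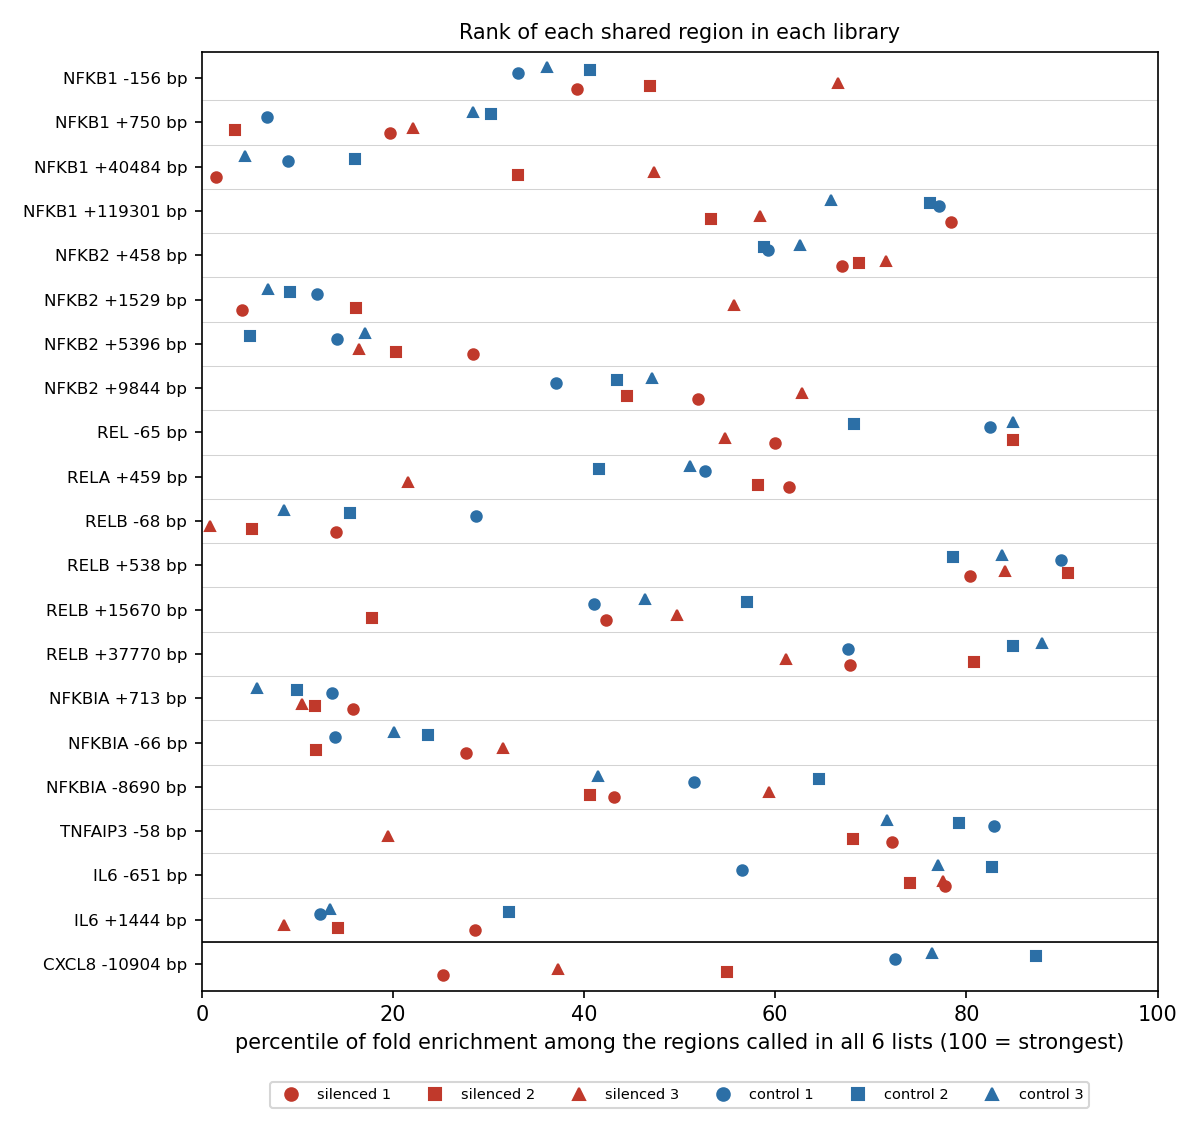
Percentile of fold enrichment of each shared region in each library, for the 20 regions in the windows and, under the black line, the upstream region nearest to CXCL8. Each row is named by gene and distance of the region's middle from the gene start. In the CXCL8 row the silenced libraries (25.2 to 55.0) lie below the control libraries (72.6 to 87.3), and of the other rows the groups separate only at the start of NFKB2.

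A rank comparison of all shared regions in the windows asked whether silencing shifted accessibility at sites open in both groups. In silenced cells 10 of the 20 regions had the higher rank and 10 the lower, and the median difference was -0.00918 score units, against 0.00662 over all 37284 shared regions. None passed (0 of 20 at an adjusted p under 0.05, limma; 0% of all shared regions passed), and 1 had an unadjusted p under 0.05. The groups did not overlap at 1 of the 20, the start of NFKB2, with silenced libraries higher, against 5.39% of all shared regions in that direction. The differences ranged from -0.720 to 0.469 and had a median SE of 0.323. On simulated scores the test called 65% of regions moved by 2 units and 0% of regions moved by 1 unit. The member differences were all smaller than 1 unit.

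Counts of peaks were compared next. The 10 windows together held 46, 45 and 38 peaks in silenced and 47, 39 and 51 in control libraries, or 43 ± 4.36 (SD, n = 3) against 45.7 ± 6.11 (SD, n = 3). These values differed by less than the spread of either group (p = 0.5, exact permutation). As a share of all peaks of a library the windows held 0.0284%, 0.0268% and 0.0313% against 0.0275%, 0.0427% and 0.0308% (exact permutation, p = 0.5), with the highest value in control replicate 2, whose list was the shortest. With all peaks counted, RELB was the only member whose counts did not overlap, with 7, 6 and 6 peaks in silenced and 5, 5 and 5 in control libraries. Over all protein-coding windows 1.6% separated in that direction and 1.42% in the other. With peaks of FDR up to 1e-05 the RELB means turned to 2.67 in silenced and 3.67 in control libraries, and over the gene span alone both were 4. NFKB1 had 11, 8 and 7 against 14, 10 and 17. Of its 36 regions, 26 were called in 1 library each. With heights of at least 4 the NFKB1 counts were 6 ± 1 in silenced and 9 ± 1 in control libraries (SD, n = 3) and did not overlap. The share of all windows that separate at this setting is not given here. With peaks of FDR up to 1e-05 the NFKB1 means were 2.67 and 3.

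**Figure D4:**
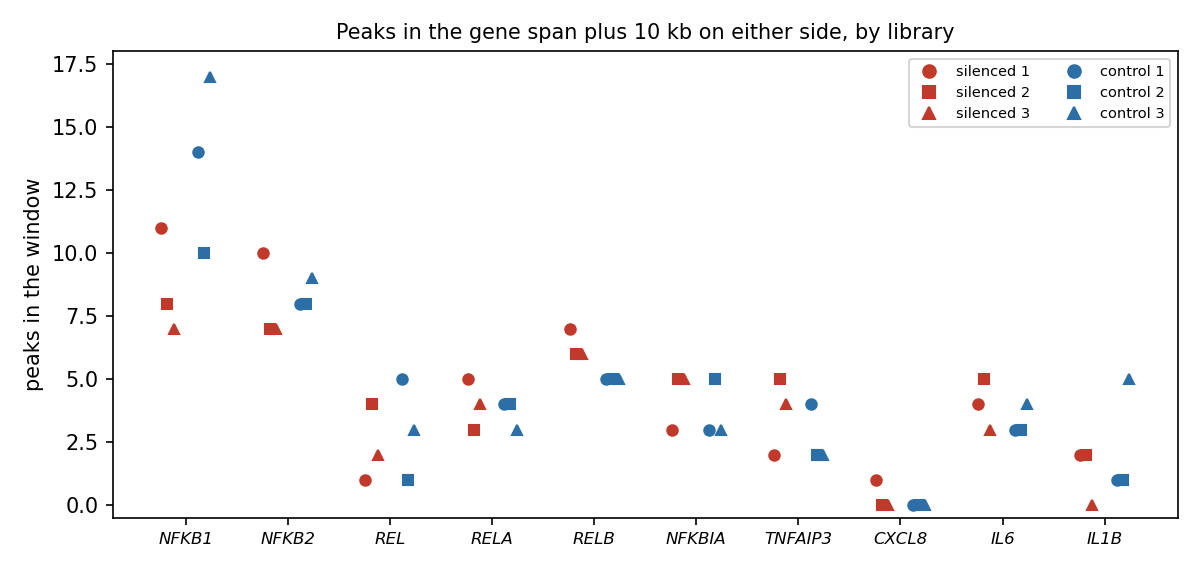
Number of peaks overlapping each gene's span plus 10 kb on either side, 1 point per library (red silenced, blue control). NFKB1, the longest gene, has between 7 and 17 peaks, and CXCL8 has 1 peak in 1 library.

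Merging the lists gave 110 regions in the windows. Of these, 18.2% were called in all 6 libraries and 62.7% in a single library, against 7.35% and 74.1% of all 507440 regions. The latter include regions far from genes, so these shares are not matched, and windows of other genes were not compared in this way. No member region (0 of 110) was called in 3 libraries of one group and 0 of the other. Over the genome 0.13% of regions were called in 3 silenced and 0 control libraries and 0.2% in the reverse. Cases 1 call away from it lay in both directions. Regions of NFKB1 at 108881 and 122451 bp were called in 3 control libraries and in silenced replicate 2 alone, and those at -8468 and 77721 bp in 2 control and 0 silenced libraries. A region of TNFAIP3 at 7118 bp and one of IL6 at 8746 bp were called in 2 silenced and 0 control libraries. These were chosen after their values were seen. The share of all regions with such patterns is not given here, so they are only a description. The density of peaks per 10 kb had a median of 0.928 over the 10 members and 0.803 over all protein-coding windows. It ran from 0.0720 at CXCL8, above 3.73% of genes, through 0.381 at REL to 1.72 at NFKBIA and 2.87 at NFKB2.

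The other genes of the pathway were taken from a fixed list of 46 kinases, adaptors, receptors, inhibitors and target genes, all found in the gene table. A peak lay within 1 kb of the start in all 6 libraries at 28 of them (60.9%, against 59.9% of protein-coding genes with a known start), in some at 12 and in none at 6. For 4 of the 28 either end of the span counted, because the start is not in the promoter table. Among the 42 with a known start, 24 (57.1%) had a peak in all 6 libraries. The 28 included the kinase genes CHUK, IKBKB, MAP3K7 and MAP3K14, IKBKG, which encodes the regulatory subunit of the IKK complex, the IkB genes NFKBIB and NFKBIE, and CYLD, which encodes a deubiquitinase. MAP3K14, which encodes the kinase NIK of the non-canonical arm, had heights of 124, 134 and 77 in silenced and 126, 156 and 101 in control libraries. The 6 without a peak within 1 kb in any library were TLR4, TNIP1, LTA, LTB, CXCL5 and CCL20. Within 2.5 kb, LTB had a peak in all 6 libraries, and only CCL20 had none in any. The number per library with a peak within 1 kb was 33, 35 and 34 in silenced and 33, 32 and 33 in control libraries (34 ± 1 against 32.7 ± 0.577, SD, n = 3; two-sided exact permutation, p = 0.3).

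A single gene of the list, TNFRSF1B, which encodes a TNF receptor, was called in 0 silenced and 3 control libraries, where the heights were 6, 9 and 12. Such a pattern occurred at 0.208% of protein-coding genes, and no gene of the list (0 of 46) had the reverse, which occurred at 0.0442%. Within 2.5 kb of its start TNFRSF1B also had a peak in 1 silenced library. At that distance the list had 41, 41 and 39 genes with a peak in silenced and 36, 37 and 36 in control libraries. These counts did not overlap, and the exact permutation p of 0.1 is the smallest the design can give. Whether protein-coding genes as a whole differ in the same way at that distance was not tested. With the start itself inside the peak they were 26, 29 and 24 against 29, 27 and 29, so the order depended on the distance. IL1A, an inflammatory cytokine gene next to IL1B, had a peak within 2.5 kb in 3 silenced and 0 control libraries, which occurred at 0.139% of genes. Its peak within 1 kb was called in silenced replicate 3 alone, with a height of 3. Of the chemokine genes related to CXCL8, CXCL2 and CXCL3 had a peak within 1 kb of the start in all 6 libraries, CXCL1 in 4 and CXCL5 in none. CXCL3 had heights of 8, 18 and 4 in silenced and 11, 19 and 23 in control libraries, and CXCL2 had 9, 13 and 4 against 7, 9 and 9. MAP3K14, IL1A, CXCL1, CXCL2 and CXCL3 were named after their values were seen.

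**Figure D5:**
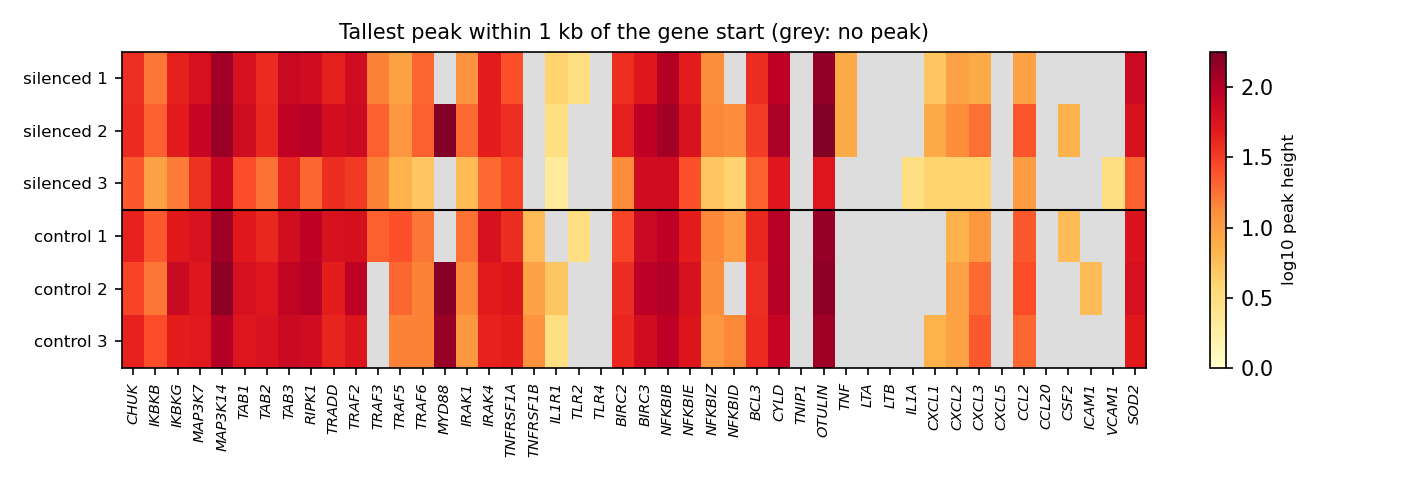
Tallest peak within 1 kb of the gene start for the 46 other pathway genes (columns) in each library (rows), coloured by log10 of the authors' height, with grey for no peak. A peak is present in all 6 libraries at 28 of the 46 genes, and TNFRSF1B is called in the 3 control libraries only.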

How the data were processed

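ATAC-seq was measured in 6 libraries of 10000 to 50000 cells each, per the labels' protocol. Per the submitters' processing notes the authors used Trimmomatic 0.36, Bowtie2 2.2.6, Picard 2.8.2, MACS2 2.1.1 and bedtools 2.25.0 with build GRCh38, with role and order not given. A shift of read ends for transposase binding is not given in the sources used here. The authors deposited 1 peak list per library, with fold enrichment as a ratio, a p-value, an FDR and a pileup signal (height) for each peak, per the file headers. The highest deposited p-value was 0.00987.

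Only the autosomes, X and Y were kept. Gene spans, starts and promoter sequences came from RefSeq (GRCh38.p14). Lists were merged at an overlap of 1 bp. Fold enrichments were ranked within each list over regions called in all 6, converted to normal scores and tested with limma 3.58.1 (Benjamini-Hochberg over all regions), tested on simulated data. Values per library were compared by exact permutation. All 10 members were named, pathway genes called in 3 against 0 libraries or in none, and the region of smallest p in each direction. Members, lists and tests were chosen with earlier results of these data known. Equal replicate numbers did not pair the libraries (correlations of deviations -0.00226, 0.00272 and -0.00204). Depth in reads is unknown. One leukocyte marker is not reported here.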

Additional observations from a re-analysis of the deposited data

How the results depend on the processing

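No member region passed the rank test under any setting run. The share of peaks in the windows, -0.00484 percentage points (silenced minus control), turned to 0.000170 with peaks of FDR up to 1e-05 and to 0.00498 with heights from 4 upward. For pathway genes with a gene-start peak, the difference of 1.33 turned to -3 at that FDR and to -2 with the start inside the peak. The cause was not tested. Regions called in one group only, 0 of 110, became 1 with midpoint windows. The count was also 1 without silenced replicate 3 and control replicate 2, an alternative added after seeing the data. With libraries left out, here and in the next paragraph, fewer calls are needed to meet this rule. Counts from those settings can rise for that reason alone and do not show an unstable member result. The share of all regions that meet the rule under each setting is not given here.

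Leaving out each library in turn gave 0 to 3 such regions, 0 to 0 regions with a changed rank, -6 to 0 peaks, -0.00792 to -0.000322 percentage points, -0.5 to 0 members and 0.833 to 1.83 pathway genes. It reversed the rank difference of NFKB1 at 750 bp (-0.594 to 0.0441), RELB at 538 bp (-0.0907 to 0.168), RELA (-0.250 to 0.273), NFKBIA at -66 bp (-0.00836 to 0.333) and IL6 at -651 bp (-0.118 to 0.263). Without silenced replicate 3 and control replicate 2 together, RELA gave 0.181 and RELB at 538 bp -0.0389. For NFKBIA at -66 bp the value was -0.169 under the FDR setting, -0.0327 ranked by height and -0.0291 by p-value, and at 713 bp -0.0296 and -0.00891. With the replicate number as a block the peak difference stayed -2.67 (paired exact sign-flip p = 0.75), and no rank call changed. Leaving out silenced replicate 3, the library of lowest implied coverage, raised the shared member regions from 20 to 24, of which 0 passed the rank test. All shared regions rose from 37284 to 41835, and with any library left out fewer calls are needed for a region to be shared. Leaving out any other library gave 20 or 21 shared member regions. The part of the depth of silenced replicate 3 in the results was not tested.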
